A study of Mus musculus with 23 samples.

Results

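The genes examined supply cytochrome P450 enzymes with electrons and heme. The list holds 9 genes: Por, Cyb5a, Cyb5b and Cyb5r3 for electron supply, and Alas1, Alad, Urod, Cpox and Fech for heme synthesis. They were taken by gene symbol, with every probe set that the array annotation assigned to 1 gene alone. This gave 21 probe sets of 8 genes, out of 34945 such probe sets of 18193 genes on the array. No probe set used here carried the symbol Por, so the P450 reductase itself was not analysed here. Cyb5a had 1 of these probe sets, Alas1, Alad and Urod 2 each, Cyb5b and Cpox 3 each, and Cyb5r3 and Fech 4 each.

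RNA of whole liver from male C3H mice had been hybridised to 23 expression arrays, 1 per sample. Wild type mice without phenobarbital gave 5 arrays and wild type mice with phenobarbital 4. Knockout mice gave 7 arrays in each condition. The knockout mice carried Alb-Cre, which puts Cre recombinase under the albumin promoter, together with loxP sites around exons 3 and 6 of Ctnnb1, the gene of beta-catenin. The deletion is meant for hepatocytes, and whole liver also holds RNA of cells that keep the gene. Treated mice ate a diet with 0.05% phenobarbital over 12 weeks. The controls ate a diet free of it over the same time, and the sample labels name water as their vehicle. The labels number the replicates but do not say that each is a separate animal, so every p-value reflects how far these samples scatter, which may be technical. Age was not given in the sources used here.

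P450 enzymes are hemoproteins of the endoplasmic reticulum that oxidise drugs, steroids and fatty acids. Each catalytic cycle needs electrons, which come from NADPH through P450 reductase or, for some reactions, from NADH through cytochrome b5 reductase and cytochrome b5. The heme itself is made in a chain of enzymes that starts and ends in the mitochondrion, and its first enzyme, 5-aminolevulinate synthase, limits the rate in liver. Phenobarbital activates the nuclear receptor CAR in hepatocytes, which raises transcription of P450 genes such as Cyp2b10. Beta-catenin maintains the perivenous programme of hepatocytes, the zone where P450 enzymes are concentrated. The question put to these genes was whether they follow the P450 response to phenobarbital in both genotypes.

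The promoters of 3 heme synthesis genes are shown here, a choice made after their values were seen: Alas1 was called higher with phenobarbital in wild type, and Alad and Cpox were called lower in knockout. Each window runs from 250 bases before to 50 bases after a start site in RefSeq, build GRCm38.p6, written 5′ to 3′ on the strand of the gene. Alas1 lies on the minus strand at chr9:106247681-106247980, and capitals mark matches to the NRF1 motif, GCGCA, then any base, then GCGC. Cpox lies on the plus strand at chr16:58669958-58670257, and capitals mark the GATA motif GATAAG read on the opposite strand. Alad lies on the minus strand at chr4:62519860-62520159, and capitals mark a CCAAT box on the opposite strand.
Alas1: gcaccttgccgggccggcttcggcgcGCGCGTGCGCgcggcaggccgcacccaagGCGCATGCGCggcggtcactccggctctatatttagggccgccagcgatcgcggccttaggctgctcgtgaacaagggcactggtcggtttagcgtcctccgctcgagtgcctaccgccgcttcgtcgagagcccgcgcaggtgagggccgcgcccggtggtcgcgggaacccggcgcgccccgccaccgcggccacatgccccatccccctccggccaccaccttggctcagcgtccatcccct
Cpox: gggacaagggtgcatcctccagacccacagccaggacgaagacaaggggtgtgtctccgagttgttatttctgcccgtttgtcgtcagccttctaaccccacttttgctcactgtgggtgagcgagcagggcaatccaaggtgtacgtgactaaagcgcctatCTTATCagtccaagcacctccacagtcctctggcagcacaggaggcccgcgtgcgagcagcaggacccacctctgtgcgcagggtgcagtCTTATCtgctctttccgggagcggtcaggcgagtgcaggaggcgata
Alad: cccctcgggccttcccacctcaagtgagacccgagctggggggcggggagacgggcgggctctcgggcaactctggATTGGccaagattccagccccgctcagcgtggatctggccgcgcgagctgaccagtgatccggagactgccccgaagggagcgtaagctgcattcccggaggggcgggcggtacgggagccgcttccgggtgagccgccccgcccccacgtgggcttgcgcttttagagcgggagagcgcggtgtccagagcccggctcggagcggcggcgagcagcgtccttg

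Both strands of each window were searched. The first letters of the NRF1 matches of Alas1 lie at -224 and -195 from the start site, and the second of them matches on both strands. A match to NRF1 occurred in 4.6% of all 32851 windows of this length. In Cpox the GATA motif starts at -87 and at 3, and 7.44% of all windows hold it. The CCAAT box of Alad starts at -174 and 37.4% of windows hold one. The other letters searched were AGGTCA for the nuclear receptor half-site, CTTTGA for the TCF/LEF core, TGACGTCA for the CRE, TATAAA for the TATA box and GGGCGG for the GC box. The half-site, TCF/LEF core, CRE and TATA box occurred in none of the 8 windows used here, from 6 listed genes. None of the 8 was of Cyb5a, Cyb5r3 or Fech. Over all windows these motifs occurred in 16.3%, 16.0%, 1.79% and 13.6%. These matches describe letters only. A GC box was found in the Alad window shown and in 35.7% of all windows.

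All values below are log2 signals, so a difference of 1 is a doubling. A probe set was tested if it exceeded the array's 40th percentile, a level between 4.52 and 4.6, in at least 4 arrays. All 8 measured genes and 20 of their 21 probe sets passed this level, and the remaining one, of Cpox, was below it on every array. In all, 13826 genes were tested. The array medians ran from 5.09 to 5.14, and no pair of arrays was identical. Of 12 hepatocyte markers 10 were measured, and their summed linear signal lay between 175636 and 194956 in all groups. Macrophage markers differed more. The summed signal of 12 of them ran from 1779 to 3482 in wild type arrays, and in knockout arrays from 3491 to 19515. It was highest in knockout replicates 2, 6 and 7 without phenobarbital, at 16324, 19515 and 17450. With phenobarbital, knockout replicates 4, 5 and 7 were highest, at 12133, 12784 and 12483. Markers of other cells moved with genotype as well. Summed signal of 10 stellate cell and scar markers ran from 2365 to 3109 in wild type and 4646 to 16087 in knockout arrays. Among untreated knockout arrays it too was highest in replicates 6, 2 and 7, at 16087, 12990 and 8560. Treated knockout arrays reached 9229. For 9 endothelial markers the sum ran from 1479 to 1779 in wild type and from 1882 to 3324 in knockout. For 5 neutrophil markers it ran from 130 to 159 and from 164 to 1372. For 5 cholangiocyte markers it ran from 152 to 206 and from 191 to 336. Lymphocyte markers overlapped, at 254 to 291 and 266 to 358. Where the knockout arrays rich in macrophage signal bear on a named gene, its difference is given with and without them. In every knockout array the endothelial sum and the stellate cell and scar sum lay above those of every wild type array. In whole liver, fewer cells of a type and less RNA per cell cannot be told apart.

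**Figure D1:**
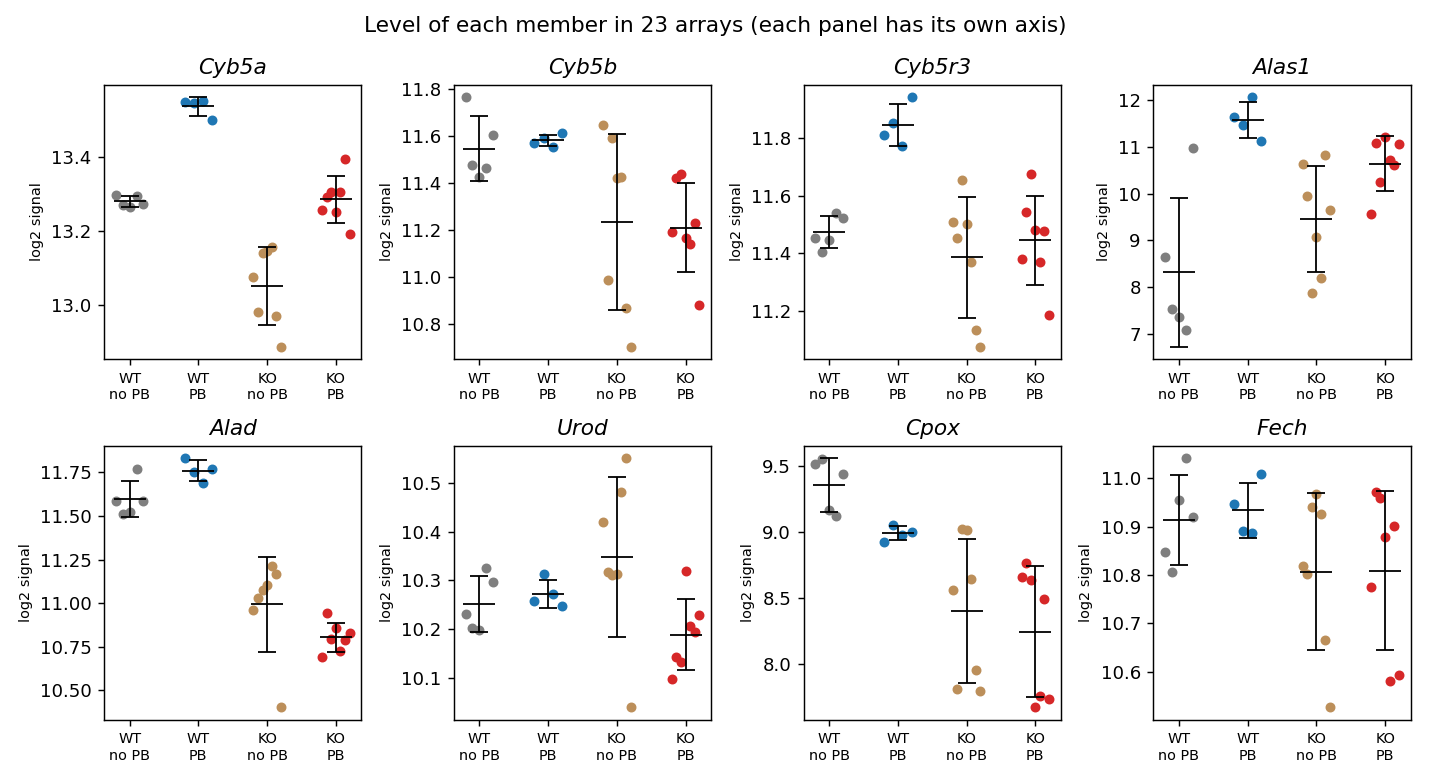
Level of each measured gene on every array, by genotype and phenobarbital (PB), with 1 panel per gene and its own log2 axis; points are arrays, and bars give the mean ± SD of 5, 4, 7 and 7 arrays. Alas1 spreads over several log2 units without phenobarbital, Cyb5a is higher with phenobarbital in both genotypes, and Alad is lower in every knockout array than in any wild type array.

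Phenobarbital raised 3 of the 8 genes in wild type liver and lowered none. Alas1, the first and rate-limiting enzyme of heme synthesis, rose 9.45-fold. Cyb5r3, the reductase that passes electrons from NADH to cytochrome b5, rose 1.29-fold, and Cyb5a, the microsomal cytochrome b5, rose 1.19-fold. Over all genes tested, 3.85% were called at an adjusted p under 0.05, and 1.95% were called higher. The median change was 0.10 over the 8 genes and 0.0079 over all genes.

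Alas1 (probe set 1424126_at) without phenobarbital stood at 8.65, 7.55, 7.37, 7.10 and 10.96 in the wild type arrays. With phenobarbital it stood at 11.64, 11.46, 12.05 and 11.12. The treated arrays all lay above the untreated ones, but untreated replicate 5 came close to the lowest treated array. The log2 change was 3.24 (SE 0.65, adjusted p = 0.00466). Leaving out replicate 5 gave 3.90, and the call held under every alternative run, with changes from 2.93 to 3.90. The other Alas1 probe set gave 2.87 (SE 0.55, adjusted p = 0.00296).

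The electron carriers moved by much less. Cyb5a (1416727_a_at) stood at 13.30, 13.27, 13.26, 13.29 and 13.27 without phenobarbital and at 13.55, 13.54, 13.55 and 13.50 with it. The groups did not overlap and each was tight, with an SD of 0.015 and 0.025. The change was 0.26 (SE 0.054, adjusted p = 0.00694). Cyb5r3 (1422186_s_at) went from 11.45, 11.41, 11.45, 11.54 and 11.52 to 11.81, 11.85, 11.77 and 11.94, again without overlap. Its change was 0.37 (SE 0.10, adjusted p = 0.0383). Of its 4 probe sets 3 did not overlap between groups, but 1 passed the test. The call of Cyb5r3 is close to the threshold: quantile normalization gave an adjusted p of 0.0601, and leaving out 1 wild type array in turn ended it in 8 of 9 cases, with adjusted p up to 0.125.

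Cyb5b, the cytochrome b5 of the outer mitochondrial membrane, changed by 0.035 (SE 0.16, adjusted p = 0.964). It ran from 11.42 to 11.76 without phenobarbital and from 11.56 to 11.61 with it, and the groups overlapped. The later heme enzymes did not pass the test either. Alad, the second enzyme of the chain, stood at 11.59, 11.51, 11.52, 11.77 and 11.59 and then at 11.83, 11.75, 11.69 and 11.77, a difference of 0.16 (95% interval -0.065 to 0.39, adjusted p = 0.547). For Urod, which decarboxylates uroporphyrinogen, the difference was 0.022 (interval -0.13 to 0.17). For Fech, which inserts iron as the last step, it was 0.020 (interval -0.17 to 0.21). These intervals hold no change as large as that of Alas1.

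Cpox, coproporphyrinogen oxidase, went the other way. It stood at 9.52, 9.55, 9.17, 9.12 and 9.44 without phenobarbital and at 8.93, 9.06, 8.98 and 9.0 with it. Every treated array was below every untreated one, yet the difference of -0.37 (SE 0.27) had an adjusted p of 0.591 in the fit that shares 1 spread over all arrays. In a fit of the wild type arrays alone the adjusted p was 0.0453. The other tested Cpox probe set gave -0.24 (adjusted p = 0.745), and its groups overlapped. Cpox is one of 4 genes among the 8 whose groups did not overlap, against 11.6% of all genes. By probe set, 4 of 20 were called higher, against 3.83% called of all probe sets, and 7 of 20 did not overlap, against 11.2%.

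**Figure D2:**
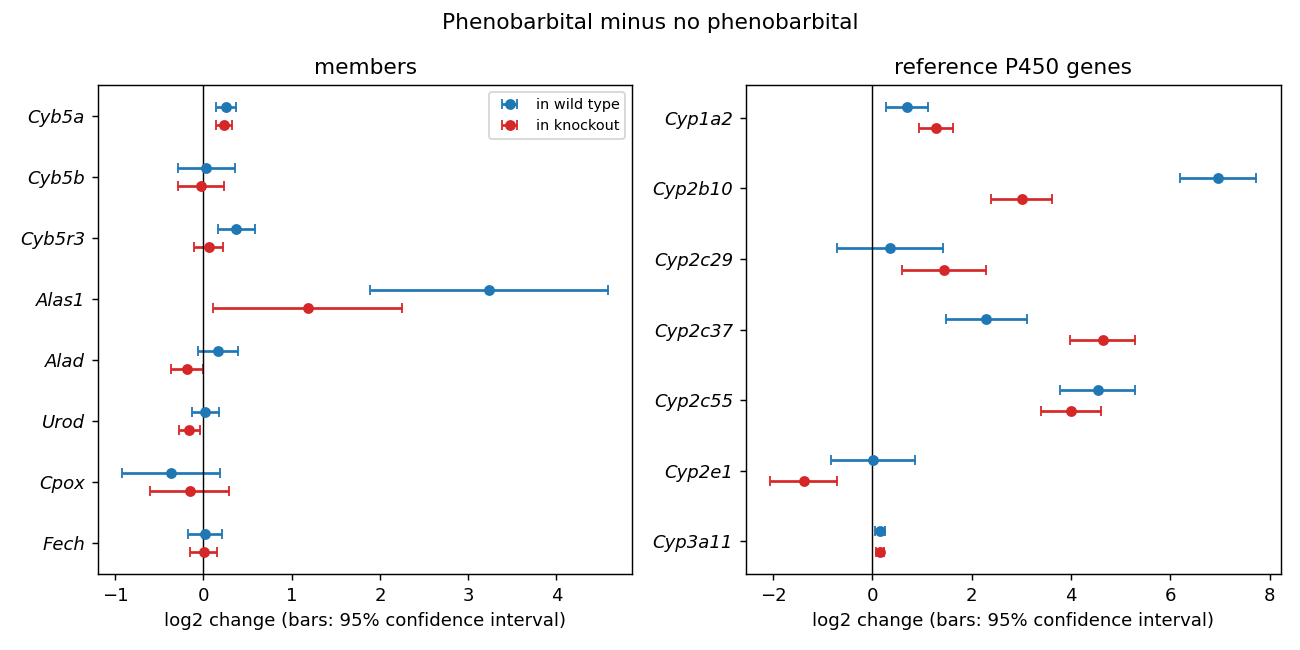
Log2 change with phenobarbital in wild type (blue) and knockout (red) for the 8 measured genes (left) and 7 reference P450 genes (right), with 95% confidence intervals from the fit to 23 arrays. Alas1 changed by 3.24 in wild type and 1.18 in knockout, Cyb5a by 0.26 and 0.23, while Cyp2b10 changed by 6.96 and 3.01.

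In knockout liver phenobarbital raised 1 of the 8 genes, Cyb5a, by 1.18-fold. Of all genes 2.05% were called and 1.17% called higher. Cyb5a without phenobarbital ran from 12.89 over a median of 13.07 to 13.16, and with it from 13.19 over 13.29 to 13.39, so the groups did not overlap, which held for 0.976% of all genes. The change was 0.23 (SE 0.043, adjusted p = 0.00453). Without untreated knockout replicates 2, 6 and 7, the arrays rich in macrophage signal, it was 0.16 (adjusted p = 0.0270). A fit of the knockout arrays alone gave an adjusted p of 0.0570, which misses the threshold.

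Alas1 in knockout liver did not pass the test. Without phenobarbital it ran from 7.88 over a median of 9.64 to 10.82, and with it from 9.56 over 10.71 to 11.20. The groups overlapped: 4 untreated arrays, at 9.64, 9.96, 10.63 and 10.82, lay above the lowest treated array, replicate 1 at 9.56. The change was 1.18 (SE 0.52, adjusted p = 0.287). Among the untreated knockout arrays Alas1 was 7.88, 9.07 and 8.20 in replicates 3, 4 and 5, whose macrophage marker signal was 3532 to 3992, and 9.64 to 10.82 in the other 4, whose signal was 10785 to 19515. Without replicates 2, 6 and 7 the change was 1.69 (adjusted p = 0.10). The part of macrophage signal in the Alas1 values was not tested.

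Among the other genes Alad and Urod pointed down. Alad ran from 10.40 over 11.07 to 11.21 without phenobarbital and from 10.69 over 10.79 to 10.94 with it. Its difference was -0.19 (SE 0.088, adjusted p = 0.324), and replicate 7 of the untreated arrays, at 10.40, was the lowest of both groups. Without that array the difference was -0.29 (adjusted p = 0.00404). Urod ran from 10.04 over 10.32 to 10.55 and from 10.10 over 10.19 to 10.32, a difference of -0.16 (SE 0.059, adjusted p = 0.179), with replicate 7 again lowest. Leaving it out gave -0.21 (adjusted p = 0.0169). The count of called genes thus went from 1 to 3 without 1 array. Without untreated replicates 2, 6 and 7 it was 4: beside Cyb5a, Alad was called at -0.28 (adjusted p = 0.00829), Urod at -0.19 (adjusted p = 0.0250) and Cyb5b at -0.31 (adjusted p = 0.0435). Cpox gave -0.57 there (adjusted p = 0.0965).

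Cyb5r3 differed by 0.060 (interval -0.11 to 0.23, adjusted p = 0.796), Cyb5b by -0.024, Cpox by -0.16 and Fech by 0.0015, none of them called. By probe set 1 of 20 was called, against 2.89% of all. Positive and negative differences were equal in number, at 10 each. The median change was -0.011 over the 8 genes and 0.0056 over all genes.

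Of the 7 reference P450 genes, 3 rose in wild type, and 4 rose and 1 fell in knockout. Cyp2b10 stood between 5.22 and 6.22 in untreated wild type arrays and between 12.58 and 12.70 with phenobarbital, a change of 6.96 (adjusted p = 1.75e-11). In knockout arrays it stood between 7.76 and 10.62 and then between 12.51 and 12.97, a change of 3.01 (adjusted p = 2.19e-06). Cyp2c37 changed by 2.30 in wild type and 4.64 in knockout, and Cyp2c55 by 4.53 and 4.0. Cyp1a2 rose in knockout (1.28, adjusted p = 7.58e-05) and gave 0.69 in wild type (adjusted p = 0.0609). Cyp2e1, whose product oxidises ethanol, gave 0.017 in wild type (adjusted p = 0.993) and fell in knockout (-1.39, adjusted p = 0.0261). Cyp2c29 and Cyp3a11 were called in neither genotype, although the treated arrays of both lay above the untreated ones in each genotype. Their changes were 0.36 and 0.15 in wild type (adjusted p = 0.839 and 0.102). In knockout they were 1.45 and 0.15 (adjusted p = 0.0660 and 0.0530). Cyp3a11 ran from 14.14 to 14.46 over all groups, and the highest value on any array was 14.92. Of 49 P450 genes tested, 9 were higher and none lower in wild type, and 13 were higher and 3 lower in knockout. Beside P450 genes called in both genotypes, Cyb5a was also called in both, and Alas1 and Cyb5r3 in wild type and not in knockout.

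Whether a response differed between genotypes was tested as the interaction, the change in knockout minus that in wild type. None of the 8 genes passed (limma, adjusted p), against 0.875% of all genes, and 3 had an unadjusted p under 0.05. These were Alas1, at -2.06 (SE 0.83, adjusted p = 0.356), Alad, at -0.35 (SE 0.14, adjusted p = 0.349), and Cyb5r3, at -0.31 (SE 0.13, adjusted p = 0.372). None of the 20 probe sets passed, against 1.03% of all. For Cyb5a the interaction was -0.022 (interval -0.17 to 0.12). Cyp2b10 by the same test gave -3.95 (adjusted p = 4.0e-05) and Cyp2c37 2.34 (adjusted p = 0.0236).

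The interaction depended on the untreated knockout arrays. With array weights, which gave replicates 2, 6 and 7 weights of 0.54, 0.32 and 0.21, Alad (-0.45, adjusted p = 0.00712) and Cyb5r3 (-0.40, adjusted p = 0.0374) were called. Leaving those 3 arrays out also called both, at -0.45 and -0.44, and leaving out replicate 7 alone called Alad, at -0.45 (adjusted p = 0.00572). Alas1 gave -1.55 without the 3 arrays (adjusted p = 0.417) and -2.72 without untreated wild type replicate 5 (adjusted p = 0.0617).

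**Figure D3:**
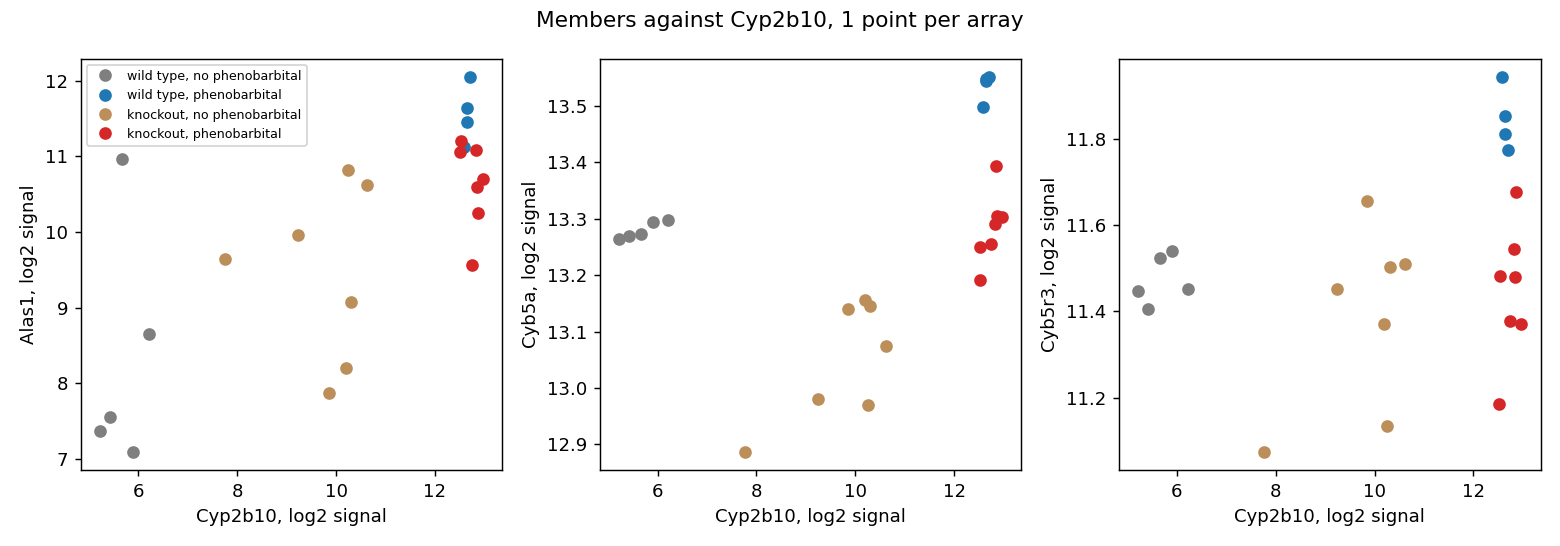
Alas1, Cyb5a and Cyb5r3 (vertical) against Cyp2b10 (horizontal), both as log2 signal, 1 point per array and 1 colour per group. Untreated knockout arrays hold Cyp2b10 at 7.76 to 10.62, above the untreated wild type arrays, while their Cyb5a lies below that of the same wild type arrays.

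Array by array, the genes were set against Cyp2b10 within each knockout group of 7. None of these 16 relations passed after Benjamini-Hochberg adjustment over the family, and the smallest adjusted permutation p of Pearson's r was 0.187 (exact). In untreated knockout arrays Urod gave r = 0.86 (rho = 0.54, exact p = 0.0260 and 0.236), and Alad r = 0.86 (rho = 0.32, exact p = 0.0645 and 0.498). Without the 2 arrays farthest from the median of Cyp2b10 these were 0.29 and -0.44, so they rest on those arrays. Cyb5a gave 0.73 in untreated arrays and -0.31 without the 2 farthest, and 0.72 and 0.29 in treated arrays. Alas1 gave 0.021 in untreated arrays and 0.74 without the 2 farthest, and -0.36 and 0.55 in treated arrays. The wild type groups of 5 and 4 arrays were too small for such a relation.

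Without phenobarbital, 3 of the 8 genes were lower in knockout than in wild type liver and none was higher. The log2 differences were -0.96 for Cpox, -0.60 for Alad and -0.23 for Cyb5a. Of all genes 25.0% were called, and 10.1% called lower, so calls were frequent in this comparison. The same 3 genes did not overlap between groups, against 10.6% of all. The median difference was -0.17 over the 8 genes and -0.0047 over all.

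Alad ran from 10.40 over 11.07 to 11.21 in knockout against 11.51 to 11.77 in wild type, a difference of -0.60 (SE 0.097, adjusted p = 0.00014). Every knockout array was below every wild type array. Replicates 3, 4 and 5, the untreated knockout arrays with the least macrophage signal, stood at 11.07, 11.10 and 11.21. Their macrophage signal was still above that of every wild type array, and its part in the Alad values was not tested. Without replicates 2, 6 and 7 the difference was -0.51 (adjusted p = 2.15e-05). The dimmer Alad probe set gave -0.55 (adjusted p = 0.0782). Cyb5a ran from 12.89 over 13.07 to 13.16 against 13.26 to 13.30, a difference of -0.23 (SE 0.047, adjusted p = 0.00163). Without the 3 arrays it was -0.15 (adjusted p = 0.0262).

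Cpox was more uneven. The 5 wild type arrays ran from 9.12 to 9.55, and the 7 knockout arrays stood at 8.57, 7.81, 9.02, 9.02, 8.65, 7.96 and 7.80. The lowest 3 are replicates 2, 6 and 7, the arrays with the most macrophage signal. The difference was -0.96 (SE 0.23, adjusted p = 0.00578), and without those arrays -0.54 (adjusted p = 0.107). Cyb5b was low on the same arrays: it stood at 10.99, 10.87 and 10.71 in replicates 2, 6 and 7 and at 11.42 to 11.65 in the other 4. Its difference was -0.31 (SE 0.14, adjusted p = 0.0989), and without the 3 arrays -0.025. The other 2 probe sets of Cyb5b were called lower, at -0.47 (adjusted p = 0.0206) and -0.34 (adjusted p = 0.0500 after rounding, just under the threshold).

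**Figure D4:**
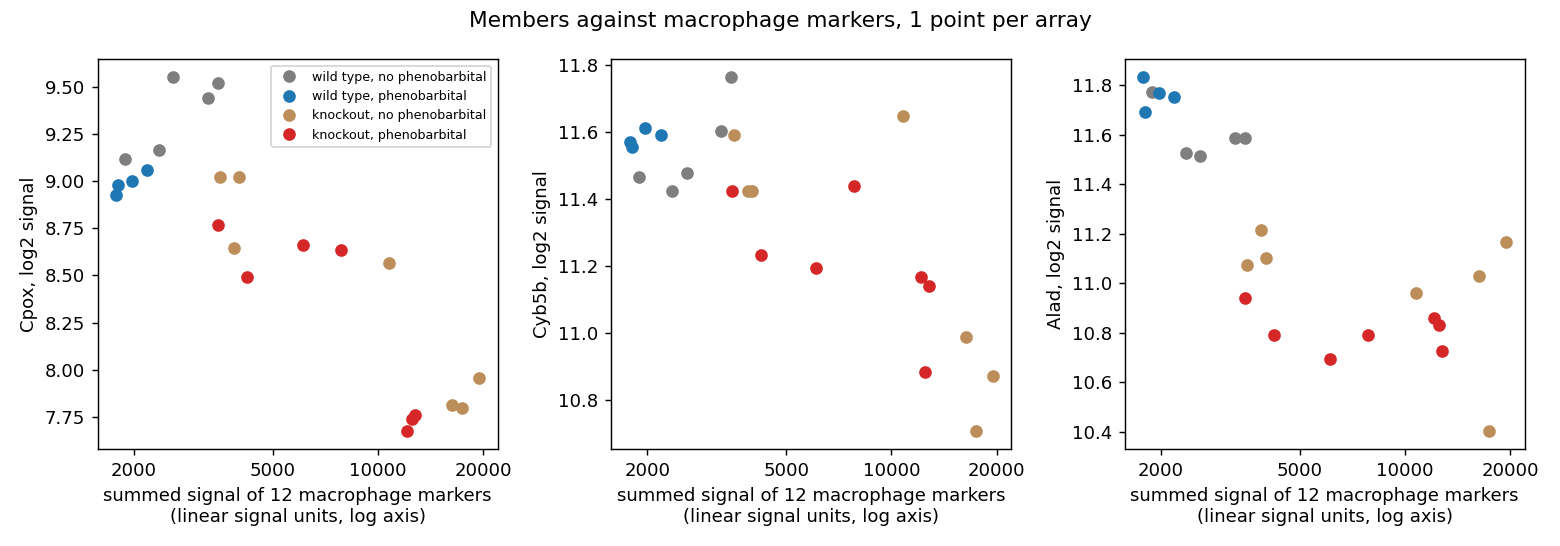
Cpox, Cyb5b and Alad (vertical, log2 signal) against the summed linear signal of 12 macrophage markers (horizontal, log axis), 1 point per array and 1 colour per group. The 6 knockout arrays with the highest marker signal have the lowest Cpox, at 7.67 to 7.96. Alad is below wild type in every knockout array, and every knockout array has more marker signal than any wild type array.

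Alas1 was not called in this comparison, although its difference was the widest of the 8. Its difference was 1.13 (SE 0.57, adjusted p = 0.147), with wild type arrays at 7.10 to 10.96 and knockout arrays at 7.88 to 10.82. Untreated wild type replicate 5, the highest of its group, decided this: without it the difference was 1.79 (adjusted p = 0.0114). Without knockout replicates 2, 6 and 7 it was 0.62 (adjusted p = 0.592). Cyb5r3 differed by -0.088 (adjusted p = 0.480), Fech by -0.11 (adjusted p = 0.343) and Urod by 0.097 (adjusted p = 0.274). The sign for Cyb5r3 depended on the probe set: 2 of its 4 were positive and 2 negative, from -0.088 to 0.21, none called. The probe sets of Urod disagreed. The brighter one was not called, whereas the dimmer one ran from 8.01 over 8.35 to 8.49 in knockout against 8.55 to 8.71 in wild type, a difference of -0.31 (adjusted p = 0.00265). In all, 7 of 20 probe sets were called lower and none higher, against 22.6% called of all probe sets.

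With phenobarbital, 4 of the 8 genes were lower in knockout than in wild type and none was higher, against 20% of all genes called and 8.12% called lower. The differences were -0.96 for Alad (SE 0.10, adjusted p = 1.07e-06), -0.75 for Cpox (SE 0.25, adjusted p = 0.0397), -0.40 for Cyb5r3 (SE 0.094, adjusted p = 0.00484) and -0.25 for Cyb5a (SE 0.051, adjusted p = 0.00145). The median was -0.39 over the 8 genes and 0.0024 over all. All 20 probe sets were lower on average in knockout, and 9 were called lower, against 18.3% called of all probe sets.

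Alad ran from 10.69 over 10.79 to 10.94 in knockout and from 11.69 to 11.83 in wild type. The gap between the groups was wider than the range within either. Cyb5r3 ran from 11.19 over 11.48 to 11.68 against 11.77 to 11.94, and Cyb5a from 13.19 over 13.29 to 13.39 against 13.50 to 13.55. Treated knockout Cyb5a thus reached the range of untreated wild type, 13.26 to 13.30, with a mean of 13.28 in both.

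Cpox stood at 8.66, 8.77, 8.64, 7.67, 7.76, 8.49 and 7.74 in the treated knockout arrays against 8.93 to 9.06 in wild type. Its call is close to the threshold. Leaving out any 1 treated wild type array, or treated knockout replicate 4, 5 or 7 alone, ended it, with adjusted p up to 0.0857. Replicates 4, 5 and 7, the 3 arrays with the most macrophage signal, were lowest. Without them the difference was -0.35 (adjusted p = 0.395), while the remaining 4 arrays still lay below every wild type array. Leaving them out also took Cyb5r3 to -0.33 (adjusted p = 0.0518), so that Alad (-0.96, adjusted p = 5.07e-05) and Cyb5a (-0.22, adjusted p = 0.0207) were the 2 genes called. By limma 9 of 11 macrophage markers tested were higher in knockout without phenobarbital and 8 of 11 with it. The counts were 8 and 7 of 9 for endothelial markers and 7 and 5 of 10 for stellate cell and scar markers. For neutrophil, cholangiocyte and lymphocyte markers they were 2 and 1 of 3, 2 and 1 of 4, and 2 and 1 of 7. Calls were also frequent over all genes, with the shares given above for both comparisons. Of the lymphocyte markers 1 was called lower in knockout without phenobarbital. No other marker of these cell types was called lower in either condition. The part of any of these cells in the lower values of Alad, Cpox, Cyb5a and Cyb5r3 was not tested.

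Cyb5b differed by -0.37 (SE 0.15, adjusted p = 0.0775), with 10.88 over 11.19 to 11.44 in knockout against 11.56 to 11.61 in wild type, and did not overlap. Without replicates 4, 5 and 7 it gave -0.26 (adjusted p = 0.375). It is one of 5 genes without overlap, against 18.6% of all genes, and by probe set 10 of 20 did not overlap, against 17.1%. Alas1 differed by -0.93 (SE 0.61, adjusted p = 0.288), with 9.56 over 10.71 to 11.20 against 11.12 to 12.05. A fit of the treated arrays alone gave an adjusted p of 0.0341. Fech differed by -0.13 and Urod by -0.084, neither called. The dimmer Urod probe set was lower again, by -0.43 (adjusted p = 0.000289). Cyp2b10 in the same arrays differed by 0.11 (adjusted p = 0.842).

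**Figure D5:**
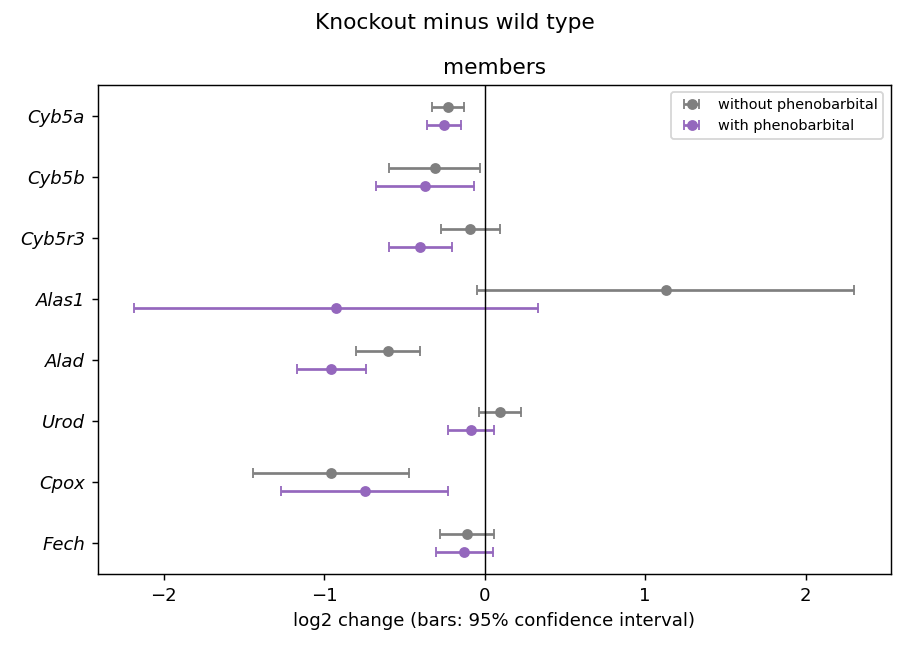
Knockout minus wild type on the log2 scale for the 8 measured genes without (grey) and with (purple) phenobarbital, with 95% confidence intervals. Alad and Cyb5a are below 0 in both conditions, Cyb5r3 lies at -0.088 without and -0.40 with phenobarbital, and the Alas1 intervals include 0 in both.

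Other genes of the pathway were counted from lists. Beside the counts of all these lists stand the shares over all genes tested. Phenobarbital called 3.85% of them in wild type and 2.05% in knockout. Between genotypes 25.0% were called without phenobarbital and 20% with it, and 10.1% and 8.12% were called lower. Of 17 other genes of heme synthesis and its transport, 14 were tested. Phenobarbital raised 1 in wild type, Slc25a37, a mitochondrial iron importer (0.42, adjusted p = 0.00969), and 1 in knockout, Pgrmc1, a heme-binding membrane protein (0.15, adjusted p = 0.0482). The call of Pgrmc1 was lost without untreated knockout replicates 2, 6 and 7 (0.098, adjusted p = 0.190) and without treated replicates 4, 5 and 7 (0.18, adjusted p = 0.0502). None was lower. In untreated knockout 3 were lower and none higher: Uros at -0.33 and Ppox at -0.21, which are enzymes of the same chain, and the mitochondrial transporter Abcb10 at -0.31. Without replicates 2, 6 and 7 Uros kept its call (-0.39, adjusted p = 0.000374), whereas Ppox gave -0.11 and Abcb10 -0.092. With phenobarbital 5 were lower, among them Abcb10 (-0.53) and the iron importers Slc25a28 (-0.41) and Slc25a37 (-0.34). Without treated replicates 4, 5 and 7, 2 of the 5 kept their call, Slc25a28 (-0.32) and Uros (-0.28), and Abcb10 gave -0.42 (adjusted p = 0.0520). The medians of this list were 0.10, 0.060, -0.14 and -0.21 in the 4 comparisons.

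Of 10 genes of heme breakdown and heme response tested, phenobarbital changed none in either genotype (limma), and 1 in wild type and 2 in knockout had an unadjusted p under 0.05. Blvrb, a biliverdin reductase, was lower in knockout by -1.14 without and -1.77 with phenobarbital (adjusted p = 1.44e-05 and 5.42e-08). It kept both calls without the arrays rich in macrophage signal, at -1.30 and -1.97. Hpx, the heme-binding plasma protein hemopexin, was higher by 0.31 and 0.46, and without those arrays gave 0.21 (adjusted p = 0.111) and 0.36 (adjusted p = 0.0129). Hmox1, heme oxygenase 1, was higher by 0.95 in untreated knockout (adjusted p = 0.0396). Without replicates 2, 6 and 7 its difference was 0.27 (adjusted p = 0.452). Among untreated knockout arrays those were highest in both macrophage signal and stellate cell and scar signal. Macrophages also express Hmox1, and the part of any cell type in its difference was not tested.

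For NADPH supply, 12 genes were tested. Phenobarbital raised Nadk, the NAD kinase (0.47, adjusted p = 0.000616), and Tkt, transketolase (0.34, adjusted p = 0.00286), in wild type, and Tkt in knockout (0.30, adjusted p = 0.00252). Between genotypes 2 were higher and 3 lower without phenobarbital, and 2 lower with it. In knockout Me1, malic enzyme, was lower without and with phenobarbital (-0.85 and -0.64), and so was Idh2, the mitochondrial isocitrate dehydrogenase (-0.37 and -0.76). None of the 5 untreated calls held without replicates 2, 6 and 7, where Me1 gave -0.47 (adjusted p = 0.0543) and Idh2 -0.25 (adjusted p = 0.133). Without treated replicates 4, 5 and 7 Idh2 kept its call (-0.79) and Me1 gave -0.43 (adjusted p = 0.283). Of 14 other electron carriers phenobarbital changed none (limma), with 1 in wild type and 0 in knockout at an unadjusted p under 0.05. Between genotypes 4 were higher and 2 lower without phenobarbital, and 2 higher and 1 lower with it. Cyb5r1 was higher by 0.62 and 0.82, the metalloreductase Steap4 was higher by 1.14 without phenobarbital, and Fdx1, the mitochondrial ferredoxin, was lower with it (-0.40). Cyb561 was below the filter level on all 4 treated wild type arrays, so its difference with phenobarbital is only a bound. With each wild type array set to its filter level, it was at least 3.79-fold higher in knockout, and this bound was not tested. The fit of the values as deposited called it higher (adjusted p = 0.00323). Without phenobarbital 2 of 5 wild type arrays were above that level, and the call (adjusted p = 0.0492) was lost without replicates 2, 6 and 7 (adjusted p = 0.543). Of the 6 untreated calls of this list 1 held without those arrays: Cyb5r1 gave 0.31 (adjusted p = 0.155) and Steap4 0.71 (adjusted p = 0.0844). Without treated replicates 4, 5 and 7 Cyb5r1 kept its call (0.63) and Fdx1 gave -0.35 (adjusted p = 0.0662).

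Enzymes outside the P450 family that take electrons from P450 reductase or cytochrome b5 made a list of 11. Phenobarbital changed none of them (limma), with 4 in wild type and 1 in knockout at an unadjusted p under 0.05. The desaturases Scd2 (2.34) and Scd1 (0.22) and the sterol desaturase Sc5d (0.25) were higher in untreated knockout. Without replicates 2, 6 and 7 Scd1 and Sc5d kept their calls (0.23 and 0.30), and Scd2 gave 1.45 (adjusted p = 0.143). With phenobarbital Msmo1, a sterol oxidase, was lower in knockout (-0.86) and Degs1, a sphingolipid desaturase, was higher (0.25). Without treated replicates 4, 5 and 7 these were -0.85 (adjusted p = 0.00571) and 0.18 (adjusted p = 0.0874). No gene of these 5 lists passed the interaction test, against 0.875% of all genes. At an unadjusted p under 0.05 (limma) there were 2, 1, 2, 0 and 3 in the order given. Medians of the 4 lists after heme synthesis ran from -0.12 to 0.094 in the 2-group comparisons.

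Heme synthesis is also strong in red cell precursors, so their markers were read beside it. Of 12 erythroid markers 8 were measured, and Hba-a1, Epb42, Slc4a1 and Rhag were below the filter level on every array. The summed signal of the 8 was 1388 to 2078 in untreated and 2613 to 2899 in treated wild type arrays. Tfrc, the transferrin receptor, which hepatocytes also carry, rose with phenobarbital in wild type (0.97, adjusted p = 0.0248). Alas2, the erythroid form of the first enzyme, differed by 0.45 (adjusted p = 0.402). Its wild type arrays ran from 9.41 to 9.61 untreated and from 9.90 to 10.12 treated. They did not overlap, which held for 11.6% of all genes. Tfrc and Alas2 were the brightest of the 8. Klf1 went the other way in wild type, from a mean of 6.48 to 6.24, and Gata1 stood at 4.71 and 4.84, neither called. In knockout the sums ran from 974 to 2084 and from 1694 to 2341. The part of these cells in the Alas1 change was not tested.

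The likeness of each gene to all others was taken as Pearson's r over the 23 arrays, which share group differences, and beside it r of the deviations from group means. For Alas1 the closest were Wdr37 (0.85 and 0.81) and Dusp3 (0.83 and 0.76). For Alad they were D630039A03Rik (0.96 and 0.83) and Aqp9, an aquaporin (0.94 and 0.75). For Cyb5a they were Cyp2d22 (0.95 and 0.70) and Cnmd (0.94 and 0.68), and then the P450 gene Cyp2d10 (0.93 and 0.65).

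Cpox was closest to Slc22a30 (0.95 and 0.93) and Cyb5b to Mlxipl, a carbohydrate-responsive transcription factor (0.94 and 0.94). Cyb5r3 was closest to Khk, ketohexokinase (0.92 and 0.83), Fech to Slc6a12 (0.93 and 0.92) and Urod to Mgst3 (0.75 and 0.78). Among themselves Cyb5b and Cpox had r = 0.85 (0.80 for deviations), and Cyb5a and Cyb5r3 0.78 (0.65). Alas1 had r between -0.37 and 0.34 to the other 7, and Urod between -0.18 and 0.32. These are descriptions over arrays of 4 groups and carry no test.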

How the data were processed

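Liver RNA of 23 samples was measured on Affymetrix arrays, 1 per sample. The authors deposited log2 signals per probe set, made by RMA in the R package affy, per the submitters' processing notes; versions are not given in the sources used here. Values were used as deposited. A probe set was named by the platform annotation where it listed 1 gene (34945 of 45037 probe sets; 932 had several and 9160 none), with symbols updated to GRCm38.p6.

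Each gene was represented by its brightest single-gene probe set by mean over all arrays. Genes above the array's 40th percentile over all probe sets in at least 4 arrays were tested, 13826 in all. limma 3.58.1 in R 4.3.3 fitted 1 mean per group to 23 arrays, with moderated variances, two-sided tests and Benjamini-Hochberg adjustment over all genes tested, and called genes at an adjusted p under 0.05. Every adjusted p of a gene or probe set is from limma. The number of arrays, 4 to 7 per group, limits the precision. The code was tested on simulated data.

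Named were all members, 7 reference P450 genes, up to 3 called genes per pathway list and comparison with the largest change, and each member's 3 closest genes, of which some are printed. Genes named only as not called or as markers, and Uros with phenobarbital, were added after their values were seen. The members and lists were chosen with earlier results of these data known.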

Additional observations from a re-analysis of the deposited data

Results flagged for a closer look

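Dixon's criterion at the 95% level was applied to the arrays of each group for each of the 21 probe sets, 84 groups of arrays in all. It marked 8 arrays as far from the rest of their group, and chance flags about 1 in 20, or 4.2 of 84. Cyb5a in phenobarbital-treated wild type replicate 4 was low at 13.50, with the nearest array at 13.54. One dim probe set of Cyb5r3 was low in treated wild type replicate 1, at 6.17 against 6.24. Alad was low in untreated knockout replicate 7, at 10.40 against 10.96, and high in untreated wild type replicate 4, at 11.77 against 11.59. The dimmer Alad probe set was low in treated knockout replicate 1, at 6.52 against 7.30. The dimmer Urod probe set was low in untreated knockout replicate 7, at 8.01 against 8.32. A second Cpox probe set was low in untreated wild type replicate 3, at 7.38 against 7.74. The Cpox probe set below the filter level was high in untreated wild type replicate 5, at 3.99 against 3.68.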

How the results depend on the processing

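Counts of called genes without 1 array ran from 2 to 3 for phenobarbital in wild type, from 1 to 3 in knockout, from 3 to 4 and from 3 to 5 for the genotype comparison, untreated and treated, and from 0 to 1 for the interaction. For phenobarbital in knockout the count was 3 with array weights, 0 with only the compared groups fitted and 4 without untreated knockout replicates 2, 6 and 7; for the interaction it was 2 with weights and 2 without those arrays. Knockout against wild type with phenobarbital gave 2 without treated knockout replicates 4, 5 and 7, an alternative chosen after seeing the data, as were a filter level taken over genes, which changed no count, and both sets of left-out arrays for the pathway lists. The cause was not tested. The other alternatives (mean of probe sets, no filter, the 60th percentile, quantile normalization, median centring, a trended and robust prior) kept each count within 1.5 times.

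The labels do not say that replicate numbers pair samples. Over 29 same-number pairs r of the deviations from group means ran from -0.70 to 0.63, and 5 were over 0.1. Over 166 other pairs it ran from -0.75 to 0.78, and 38 were over 0.1. Both kinds of pairs spread widely, so these values cannot show whether equal numbers belong together. With the replicate number as a block, Cpox in knockout against wild type with phenobarbital was -0.58 (adjusted p = 0.164), no other member lost its call, and over all genes the 2 genotype comparisons gave 1967 and 1606 calls, against 3453 and 2772. Array weights gave 1503 calls for phenobarbital in wild type, against 532, and 461 against 284 in knockout. For genotype with phenobarbital they gave 4574 against 2772, and for the interaction 323 against 121. For genotype without phenobarbital they gave fewer, 2474 against 3453. Fitting only the compared groups gave 929, 100, 2078 and 3468 in the order wild type, knockout, untreated and treated.

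Signs turned only for differences that were not called. For phenobarbital in knockout the mean of probe sets gave 0.077 for Cyb5b and -0.0086 for Cyb5r3; weights gave -0.022 for Cyb5r3 and -0.054 for Fech; without replicates 2, 6 and 7 these were -0.064 and -0.11; without replicates 4, 5 and 7 Cyb5b was 0.086 and Cpox 0.24. For untreated knockout against wild type Cyb5r3 was 0.030, 0.021 and 0.036 with the mean of probe sets, with weights and without replicates 2, 6 and 7, and Urod -0.11 with the mean. For the interaction Cpox was -0.20 without replicates 2, 6 and 7; Fech was 0.022 with the mean and 0.075 without 4, 5 and 7, which also turned Cyb5a to 0.0047 and Cyb5b to 0.051. Leaving out 1 array, Fech ran from -0.0072 to 0.052 (phenobarbital in wild type), -0.045 to 0.040 (in knockout) and -0.065 to 0.020 (interaction), and Cyb5b from -0.11 to 0.044 (in knockout) and -0.15 to 0.0093 (interaction). Correlations with Cyp2b10 without the 2 farthest arrays turned to -0.31, -0.25, -0.44, -0.33 and -0.33 for Cyb5a, Cyb5r3, Alad, Cpox and Fech in untreated knockout, and to -0.19, -0.030, 0.55, 0.81, -0.84 and -0.50 for Cyb5b, Cyb5r3, Alas1, Urod, Cpox and Fech in treated knockout.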
